A study of Mus musculus with 12 samples.

Results

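The cytosolic ribosomal protein genes were followed in 12 Rd76-9 tumors by RNA-seq. A gene was taken by its symbol, Rpl or Rps with a number and an optional a, l or x, or Rplp0, Rplp1, Rplp2 or Rpsa, provided that at least 1 of its transcripts was a curated RefSeq mRNA (NM_) and that it was not named as a pseudogene. This gave 82 of the 38898 genes in the files, and 79 of them had enough counts to be tested. The rule used no measured value. Rd76-9 is a mouse rhabdomyosarcoma cell line, and the tumors were grown under the skin of wild-type C57/Bl6J mice and taken 16 days after inoculation. Each group held 3 tumors, from mice given vehicle (m1, m2 and m3), vincristine (VCR) at 0.25 mg/kg into the abdomen every 7 days (m4, m5 and m6), 8 µg of RCM1, a FOXM1 inhibitor, in folic acid-coated nanoparticles (RCM1-NPFA; m7, m8 and m9), or both drugs (VCR+RCM1-NPFA; m10, m11 and m12). The p-values given here set differences between groups against the spread between tumors. In the main test that spread was estimated from all 12 tumors together. The vehicle tumors are titled as controls, which by the study's methods received saline and empty nanoparticles, but their treatment label also names the RCM1 nanoparticle. All tumors came from the same cell line and were sequenced as bulk tissue, so fewer cells of a type and less RNA per cell cannot be told apart.

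The cytosolic ribosome is the machine that reads mRNA into protein. Its small subunit decodes the mRNA and its large subunit joins the amino acids, and each subunit is built from ribosomal RNA and a fixed set of proteins made in nearly equal numbers. Ribosomal protein mRNAs are among the most abundant mRNAs of growing cells and typically begin with a run of pyrimidines, the 5′ terminal oligopyrimidine tract, through which the kinase mTOR and the RNA-binding protein LARP1 control their translation. A few members are paralogs expressed in some tissues only, such as Rpl3l, which takes the place of Rpl3 in striated muscle.

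The annotated start sites were searched for such runs. RefSeq promoters (GRCm38.p6) were found for 62 of the 82 genes, with 74 start sites. Windows of 25 bases, 10 before and 15 from the annotated first base, are given 5′ to 3′ for paralog pairs and for some of the members described later, with long and with short runs. The capitals mark the longest unbroken run of C and T.
Rps27, chr3:90213634-90213658, minus strand: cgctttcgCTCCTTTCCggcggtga
Rps27l, first start site, chr9:66946076-66946100, plus strand: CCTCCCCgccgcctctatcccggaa
Rps27l, second start site, chr9:66946403-66946427, plus strand: gggCTTCagggtcactaacgggcct
Rplp2, chr7:141447641-141447665, plus strand: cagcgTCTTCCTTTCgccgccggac
Rps21, first start site, chr2:180257369-180257393, plus strand: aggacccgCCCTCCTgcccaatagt
Rps6, chr4:86857353-86857377, minus strand: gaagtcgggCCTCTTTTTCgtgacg
Rpl28, chr7:4792955-4792979, plus strand: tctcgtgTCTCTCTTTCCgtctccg
Rpl10, chrX:74270806-74270830, plus strand: tacagtggaagataggccgCCTata
Rpl23, chr11:97782425-97782449, minus strand: gTCCggtcacgtggctgagtgggcg
Rpl36a, chrX:134585644-134585668, plus strand: cccaggcaccgcctataaaCTTCCg
Rpl36al, chr12:69184053-69184077, minus strand: ccgtcgctcaggttcagTTCCgact
Rpl3l, first start site, chr17:24727816-24727840, plus strand: ttctagctctgtcatttgaCCTCTg
Rpl3l, second start site, chr17:24732675-24732699, plus strand: caacagctacagtgCCCCaaatgtc
The run was 9 bases long in Rps27, 10 in Rplp2 and Rps6 and 11 in Rpl28, and it spanned the annotated first base in each of them. It was 3 bases long in Rpl10 and Rpl23, which are expressed broadly too, 5 in Rpl36a, and 5 and 4 at the start sites of Rpl3l. A run of 6 or more C or T lay within the window at 33 of 66 start sites of the members other than paralogs (50%) and at 24.4% of all start sites. A run of 8 or more C or T lay there at 22 of the 66 (33.3%) and at 9.49% of all 32851 start sites in the table. The letters CCGGAAG, the core that ETS-family factors such as GABPA are known to bind, were present on either strand within 300 bases of 24 of the 66 (36.4%) and of 8.86% of all start sites, whereas CAGCTG was present at 3.03% of the 66 and at 16.3% of all. The first start site of Rpl3l held CAGCTG and no CCGGAAG. These are matches of letters to annotated starts, and no tract length was measured here.

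Ribosomal protein genes took 7.57% to 9.32% of all counts in a tumor, and 22.1% to 26.9% of all TPM (transcript abundance, in which counts are divided by transcript length). By group, the share of counts was 8.54% ± 0.68 (SD, n = 3) in vehicle, 8.61% ± 0.33 in VCR, 8.31% ± 0.67 in RCM1-NPFA and 8.11% ± 0.49 in VCR+RCM1-NPFA tumors. The tumors of all groups overlapped. Large-subunit and small-subunit genes held a nearly constant proportion to each other, with a summed TPM ratio between 1.43 and 1.47 in each of the 12 tumors. The files hold 29342195 to 32108055 counts per tumor.

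Per length, Rpl41, which encodes the smallest protein of the large subunit, had the highest level, with a TPM of 8389 ± 486 (SD over 12 tumors). It was followed by Rplp1, a protein of the acidic stalk, at 7847 ± 563, by Rps2 at 7172 ± 402, and by Rps18 at 6407 ± 446 and Rpl23a at 6362 ± 438. The first and second of these overlapped over the tumors, as did Rplp1 and Rps2, and Rps18 and Rpl23a did not differ beyond their spread. Among the tested genes, the lowest levels were those of Rps20 at 460 ± 32.3, the paralog Rps27l at 405 ± 34.6, Rpl22 at 353 ± 20.2, Rps15a at 179 ± 7.41, Rps6 at 67.7 ± 8.05 and the paralog Rpl3l at 8.64 ± 13.3. The paralog Rpl36al, at 814 ± 41.8, lay above Rps20, Rpl15 and Rps3. Rps6 encodes the small-subunit protein that is phosphorylated downstream of mTOR, and a transcribed copy in the index held most reads of this sequence family. Its single RefSeq transcript of 1394 bases received 1326 to 1877 counts per tumor, while that copy, the pseudogene Rps6-ps4 outside the rule, received 45513 to 57265. How the reads of Rps6 were divided between them was not tested, and the level of Rps6 is uncertain for that reason. Rps15a was quantified on a transcript of 5158 bases, 8.08 times the median length of its coding transcripts in GENCODE M21, and its place in the order is uncertain too. This ratio was at least 2 for 4 of the 81 members with a GENCODE coding transcript, and its median was 1.01. For Rps20 it was 0.93, with a RefSeq transcript of 3446 bases and a GENCODE one of 3706. In CPM, which are not divided by length, Rps20 was at 955, 36th of the 82 members. On that scale Rpl36al, at 182, lay below Rps20, Rpl15 (712) and Rps3 (834). The low place of Rps20 holds per length only, and whether the long transcript is the one expressed was not tested.

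The genes other than paralogs moved together from tumor to tumor. For 76 tested genes, leaving Rpl3l, Rps27l and Rpl36al apart, each tumor's log2(CPM + 0.1) was set against the gene's own mean over the 12 tumors (CPM, counts scaled to a common library size after TMM normalization). In the vehicle tumor m3 all 76 genes lay above their mean, by a median of 0.19, while the other vehicle tumors had medians of −0.08 (m1) and −0.06 (m2). The VCR tumors had medians of 0.07 (m4), 0.13 (m5) and −0.05 (m6). The RCM1-NPFA tumors had medians of 0.02 (m7), 0.09 (m8) and −0.15 (m9), and 75 of the 76 genes were above their mean in m8 and 0 in m9. The VCR+RCM1-NPFA tumors had medians of −0.14 (m10), −0.11 (m11) and 0.05 (m12). Each group thus held at least 1 tumor above and 1 below the mean, and the groups overlapped. How many of all genes tested lay above their mean in each tumor was not counted, so these counts describe the members only. The SD between tumors of a group was 0.13 in the median gene (0.06 to 0.20), against 0.19 for all 17602 genes tested and 0.12 for the 2176 other genes at 100 CPM or more.

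**Figure D1:**
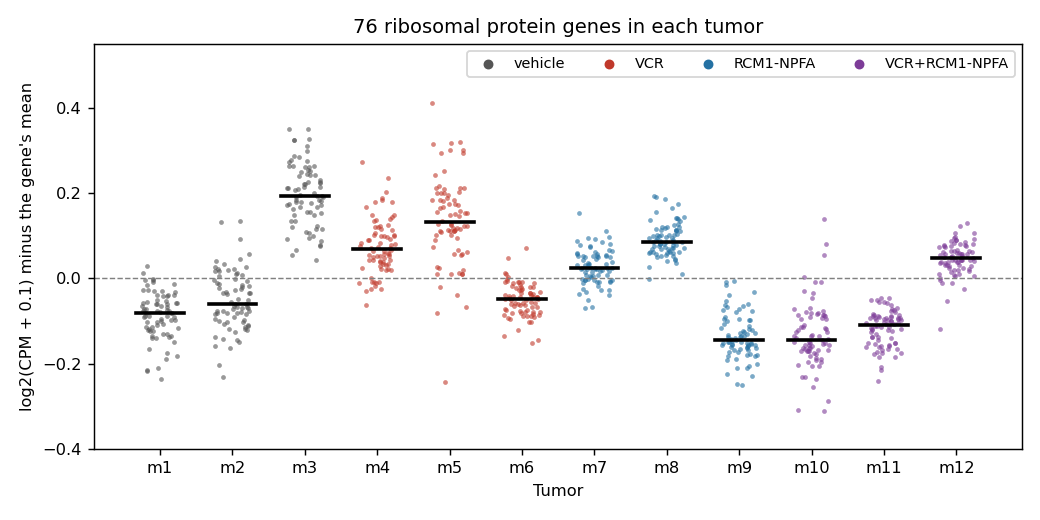
Difference of log2(CPM + 0.1) from each gene's mean over the 12 tumors, for 76 ribosomal protein genes (points) in each tumor, coloured by group, with the tumor's median as a bar. All points of the vehicle tumor m3 lie above 0 and all points of m9 and m11 lie below 0, and the 4 groups overlap.

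To ask whether VCR, RCM1-NPFA or both changed these genes, counts were compared by edgeR's quasi-likelihood test in 1 fit of all 12 tumors, with Benjamini-Hochberg adjustment over all genes tested and a threshold of 0.1. With VCR, 1 of 79 ribosomal protein genes changed, the paralog Rps27l, which rose. In the same comparison 5.55% of all genes tested passed (977 genes, 493 higher and 484 lower), that is 2.8% of all genes higher and 2.75% lower, and 1.27% of the members passed. At an unadjusted p under 0.05, 3 of 79 members were higher (Rpl3l, Rps27l and Rps29) and 0 lower, where 11.7% of all genes were higher and 10.4% lower (22.1% in either direction). With RCM1-NPFA and with VCR+RCM1-NPFA, 0 of 79 members and 0 of all genes (0%) passed the edgeR threshold. At an unadjusted p under 0.05 there was 1 member higher with RCM1-NPFA, Rpl3l, and 0 lower (all genes 5.34% higher, 9.78% in either direction), and there were 0 members with VCR+RCM1-NPFA (7.31%). By DESeq2's Wald test, 2 members passed with VCR (Rpl3l and Rps27l), 1 with RCM1-NPFA (Rpl3l) and 0 with VCR+RCM1-NPFA. Of all genes, 2285, 277 and 61 passed by DESeq2 in these comparisons. Comparing VCR+RCM1-NPFA with either single drug, 0 members and 0 genes passed in edgeR and 0 members in DESeq2. At an unadjusted p under 0.05, 3 members were lower than with VCR (Rps29, Rps21 and Rplp1, all genes 2.68% lower, 5.26% in either direction) and 0 members differed from RCM1-NPFA (2.07%).

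The standard errors of the 76 genes ran from 0.07 to 0.15 on the log2 scale, with a median of 0.11. For VCR against vehicle, the 95% intervals of the log2 fold change lay between −0.40 and 0.57, 75 of 76 included 0, and 74 lay within 0.50 of 0 on both sides. With RCM1-NPFA and with VCR+RCM1-NPFA, all 76 intervals lay within that bound, and all included 0.

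The members leaned to 1 side in some comparisons, by amounts that depended on single tumors. The median log2 fold change of the 79 genes was 0.04 with VCR (49 above 0 and 30 below, against 50.3% and 49.7% of all genes), −0.02 with RCM1-NPFA (55 below 0, all genes 49.3%) and −0.09 with VCR+RCM1-NPFA, where the medians of all genes tested were 0.002, 0.003 and 0.002. With VCR+RCM1-NPFA 73 of 79 members lay below 0, against 49.6% of all genes, although none passed the test, and this median was −0.14 without m1 or m2 and −0.15 without m12. Without the vehicle tumor m3, the median with the combination was 0.006, with 38 of 79 below 0, and the medians with VCR and RCM1-NPFA were 0.13 and 0.07, with 73 and 72 of 79 above 0. The median with RCM1-NPFA also turned without m9, to 0.04. The median with VCR turned to −0.01 without m1, to −0.02 without m2 and to −0.01 without m5. The comparisons with vehicle share the 3 vehicle tumors. For the fits without 1 tumor, here and in the next sentences, the share of all genes on each side of 0 was not counted. Against VCR, the VCR+RCM1-NPFA tumors had a median of −0.13, with 75 of 79 members below 0 (all genes 50.9%), and this median stayed negative without any single tumor, from −0.18 to −0.07, nearest to 0 without m5 (−0.07) or m10 (−0.08). Against RCM1-NPFA the median was −0.06, with 78 of 79 below 0 (all genes 52.1%), and it ran from −0.13 without m9 and −0.12 without m12 to −0.03 without m10 or m11 and −0.02 without m8, where 50 of 79 were below 0.

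**Figure D2:**
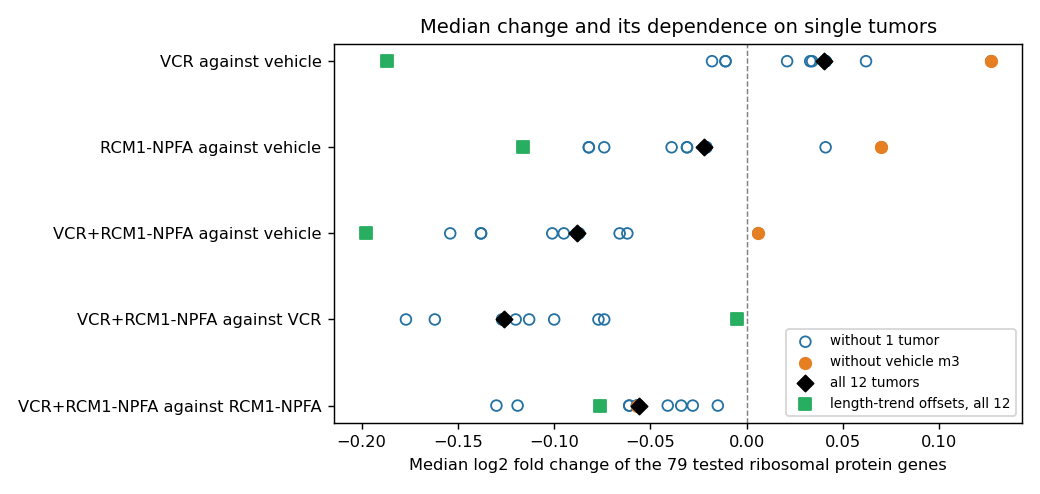
Median log2 fold change of the 79 tested ribosomal protein genes in 5 comparisons, with all 12 tumors (diamonds), without each tumor in turn (circles, with the fit that leaves out the vehicle tumor m3 filled) and with offsets for the trend on transcript length (squares). Leaving out m3 moved the 3 comparisons with vehicle to 0.127, 0.070 and 0.006.

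Ribosomal protein mRNAs are short, and in the VCR comparisons the change of a gene went with its transcript length. The VCR tumors m4 and m5 had the most negative slopes of level on length over all genes, −0.058 and −0.067 on the log2 scale per doubling of length, and the vehicle tumors m1 and m2 had the most positive ones, 0.060 and 0.043. The length that kallisto subtracts to obtain an effective length, which follows the mean fragment length, was 160 bases in m5 and 162 in m4, the lowest of the 12, and 185 in m1, the highest. It did not follow the slopes throughout, with 166 bases in m2, the third lowest, and 184 in m3, the second highest, whose slope was 0.007. For VCR against vehicle, genes outside the rule had a median log2 fold change of 0.19 under 600 bases, 0.18 from 600 to 1000, 0.11 from 1000 to 2000, 0.01 from 2000 to 4000 and −0.15 from 4000 bases. The 28 members under 600 bases had a median of 0.06, the 27 from 600 to 1000 a median of 0.001 and the 21 from 1000 bases a median of 0.02. In the first 2 classes these medians were below those of the other genes of the same length, a description that was not tested. Across the 76 members, Spearman's rho of change with length was −0.37, and it was −0.33 across all 17602 genes, which share the same 6 libraries and are not independent. For VCR+RCM1-NPFA against VCR these values were 0.44 and 0.29, and for RCM1-NPFA against vehicle −0.29 and −0.22. They were −0.04 and −0.19 for VCR+RCM1-NPFA against vehicle and 0.36 and 0.07 for VCR+RCM1-NPFA against RCM1-NPFA. When the trend of each library on length was put into the fit as an offset, the member median with VCR became −0.19, with 75 of 79 below 0, while that of all genes became −0.08. With that offset the median of VCR+RCM1-NPFA against VCR became −0.005, with 41 of 79 below 0 (median of all genes 0.01). The share of all genes below 0 with the offset was not counted. The part of fragment length or RNA quality in these values was not tested.

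**Figure D3:**
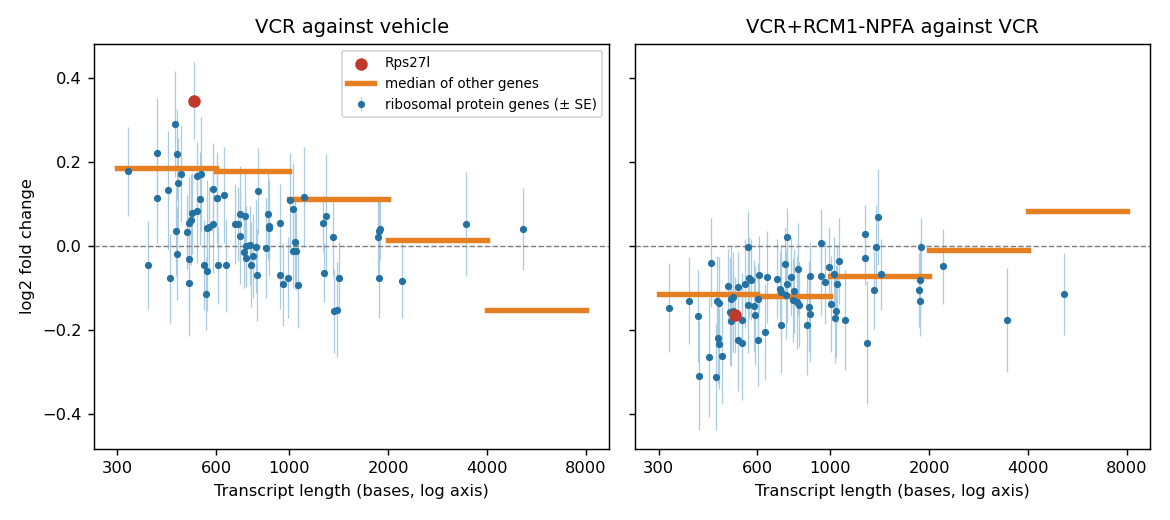
log2 fold change (± SE) of each tested ribosomal protein gene except Rpl3l against its transcript length, with the median of all other genes in 5 classes of length as bars, for VCR against vehicle and VCR+RCM1-NPFA against VCR. With VCR the medians of the other genes run from 0.186 under 600 bases to −0.152 from 4000 bases, and the members of 300 to 2000 bases lie mostly below the bars.

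Rps27l, a paralog of Rps27 that is known as a target of p53, was the only member that passed the test. The gene lies on chromosome 9 (66944624 to 66949522, GRCm38.p6) and has 5 RefSeq transcripts of 509 to 2454 bases, with a mean length weighted by abundance of 513 bases. Its level was 76.1, 81.4 and 74.9 CPM in the vehicle tumors, 96.2, 110 and 89.2 in the VCR tumors, 75.9, 91.3 and 89.6 in the RCM1-NPFA tumors, and 86.7, 91.2 and 85.7 in the VCR+RCM1-NPFA tumors. All VCR and all VCR+RCM1-NPFA tumors lay above all vehicle tumors, as did 2372 genes (13.5%) and 1250 genes (7.1%) of all tested, and the RCM1-NPFA tumors overlapped with vehicle. The log2 fold change was 0.35 (SE 0.09, edgeR adjusted p = 0.0868) with VCR, 0.14 (SE 0.09, adjusted p = 0.649) with RCM1-NPFA and 0.18 (SE 0.09, adjusted p = 0.692) with VCR+RCM1-NPFA. A two-sided exact permutation test gave p = 0.1 for VCR, the smallest that 3 against 3 tumors allow. With offsets for transcript length the change of Rps27l with VCR was 0.11 (edgeR adjusted p = 0.483). The call was also lost when any 1 of m1, m2, m3, m4, m5, m10, m11 and m12 was left out, with edgeR adjusted p from 0.111 to 0.332 and the lowest fold change, 0.26, without m5. It was lost, too, with no filter on counts (edgeR adjusted p = 0.103), with NM_ transcripts alone (0.132), with only the VCR and vehicle tumors fitted (0.152), by limma-trend on log2(TPM + 1) (limma adjusted p = 0.192) and at a threshold of 0.05. Over all alternatives the adjusted p ran from 0.017 (DESeq2) to 0.483 (edgeR with a trend on transcript length). Rps27 itself, whose protein sits in the small subunit, was at 570, 616 and 702 CPM in vehicle and 619, 661 and 548 in VCR tumors, which overlapped.

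Rpl3l had the largest fold changes of all members and the largest spread. It encodes the striated muscle form of a protein near the peptidyl transferase center and lies on chromosome 17 (24727826 to 24736143). Its level was 0.80, 0.20 and 0.57 CPM in the vehicle tumors (26, 6 and 17 counts), 6.31, 20.7 and 3.67 in the VCR tumors, 0.66, 0.57 and 33.7 in the RCM1-NPFA tumors and 4.60, 8.61 and 1.22 in the VCR+RCM1-NPFA tumors. All VCR and all VCR+RCM1-NPFA tumors were above all vehicle tumors, as was the case for 13.5% and 7.1% of all genes tested. In the RCM1-NPFA group only m9 lay above all vehicle tumors (1070 counts), with m7 and m8 at 20 and 18 counts. The log2 fold change was 4.27 (SE 1.50, edgeR adjusted p = 0.14) with VCR, 4.45 (SE 1.51, adjusted p = 0.43) with RCM1-NPFA and 3.18 (SE 1.47, adjusted p = 0.69) with VCR+RCM1-NPFA. The two-sided exact permutation test of log2(CPM + 0.1) gave differences of 3.81 (p = 0.1), 2.19 (p = 0.4) and 2.73 (p = 0.1). The change with VCR passed the threshold when only the VCR and vehicle tumors were fitted (adjusted p = 0.0393), without m9 (adjusted p = 0.0249) and in DESeq2 (adjusted p = 0.028).

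Rpl3, the ubiquitous counterpart, had 1933, 1932 and 2403 CPM in vehicle and 1923, 1832 and 1874 in VCR tumors, so all VCR tumors were below all vehicle tumors, the nearest at 1923 against 1932. It had the lowest log2 fold change of all members with VCR, −0.16 (SE 0.10, edgeR adjusted p = 0.385). It was 1 such member of 79, and 10.9% of all genes had every VCR tumor below every vehicle tumor.

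**Figure D4:**
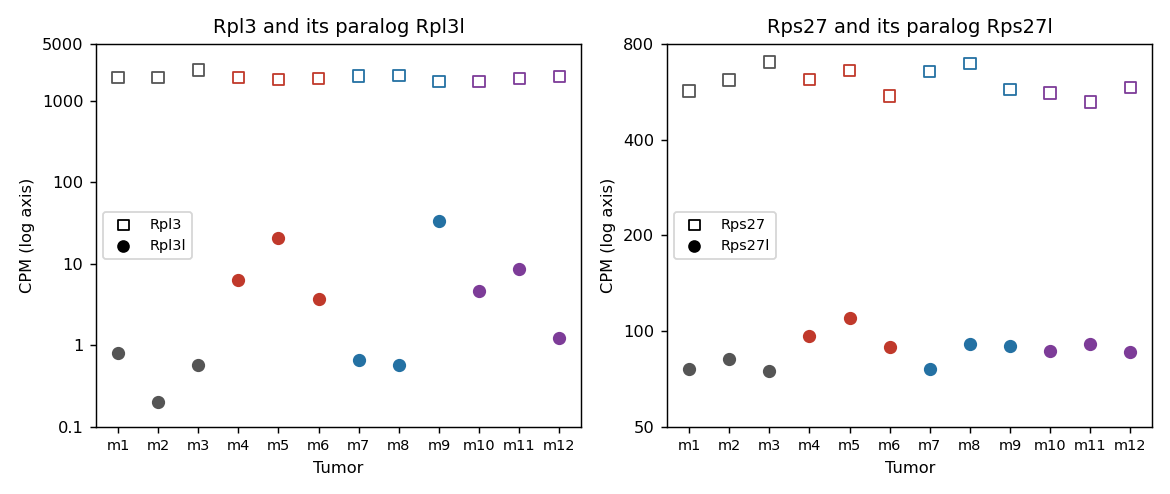
CPM (log axis) by tumor of Rpl3 and Rpl3l and of Rps27 and Rps27l, coloured by group (vehicle grey, VCR red, RCM1-NPFA blue, VCR+RCM1-NPFA purple), with open squares for the ubiquitous gene and filled circles for the paralog. Rpl3l ranges from 0.2016 to 33.67 CPM, while Rpl3 stays between 1741 and 2403.

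Skeletal muscle genes moved with Rpl3l. A list of 18 genes of mature muscle fibres, such as Acta1 (skeletal muscle actin) and Ckm (muscle creatine kinase), summed to 308 to 442 CPM in vehicle, 2165 to 14130 in VCR, 407 to 21260 in RCM1-NPFA and 810 to 5521 in VCR+RCM1-NPFA tumors. All 18 were tested and 9 of them rose with VCR (median log2 fold change 6.97), where 2.8% of all genes tested were higher. With RCM1-NPFA and with VCR+RCM1-NPFA their medians were 7.01 and 5.41, and 0 of them and 0 of all genes passed. At an unadjusted edgeR p under 0.05, 17 and 16 of the 18 were higher there (all genes 9.78% and 7.31% in either direction). In the RCM1-NPFA group m7 and m8 summed to 407 and 547 CPM, and m9 to 21260. Of the 18 genes, 0 were at 0 counts in all tumors. Myh4, a fast myosin heavy chain, was at 0 in m2 and m3 and at 4900 CPM in m9. The 7 tumors with the highest Rpl3l (m9, m5, m11, m4, m10, m6 and m12) were in the same order by the summed level of the list. Desmin (Des), an intermediate filament of muscle, was at 7.76 to 11.4 CPM in vehicle tumors and 573 in m9. Of the markers of rhabdomyosarcoma, Myod1 and Myog were at 0 to 0.0617 CPM in the vehicle tumors, while Myf5, another myogenic factor, was at 52.6 to 69.9 CPM and the muscle cadherin Cdh15 at 125 to 188. Of the 6 tested markers of that list, 3 rose with VCR, Myod1 (log2 fold change 7.07, SE 1.75, edgeR adjusted p = 0.0819), Myog (5.58, SE 1.12, adjusted p = 0.0693) and Des (4.70, SE 1.29, adjusted p = 0.0908), 0 fell, and the median of the 6 was 4.43. In the VCR tumors Myod1 was at 1.2 to 2.38 CPM and Myog at 1.43 to 2.16 CPM, so their fold changes rest on low levels. Myf5 (−0.08), Cdh15 (0.36) and Myf6 (4.15, SE 1.27, edgeR adjusted p = 0.105) did not pass. In the other comparisons, 0 markers passed. The median of the 6 was 3.60 with RCM1-NPFA and 3.29 with VCR+RCM1-NPFA. In m7, m8 and m9, Des was at 11.7, 18.1 and 573 CPM and Myf6 at 0.166, 0.575 and 13.7. Myod1 was at 0.0331, 0 and 2.3 CPM and Myog at 0, 0.287 and 0.976 in the same tumors. Myf5 was lower with RCM1-NPFA, at −0.34 (SE 0.11, edgeR adjusted p = 0.419), and Cdh15 was at 0.13. The part of muscle tissue or of muscle differentiation in the level of Rpl3l was not tested. The leukocyte list, summed, overlapped between vehicle and every treated group, at 578 to 777 CPM over the 12 tumors, and 0 of its 8 tested genes passed. The 5 endothelial genes summed to 113 to 151 CPM in vehicle and 154 to 208 CPM in the 9 treated tumors, without overlap. Of all single genes tested, 2.39% had every treated tumor above every vehicle tumor. At an unadjusted edgeR p under 0.05, 4, 3 and 3 of the 5 were higher with VCR, RCM1-NPFA and VCR+RCM1-NPFA. Of all genes, 22.1%, 9.78% and 7.31% had such a p in either direction, and 0 of the 5 passed after adjustment in any comparison. The 6 adipocyte genes, summed, were at 6.62 to 130 CPM in vehicle and 20.8 to 35.1 CPM in RCM1-NPFA tumors. Their median log2 fold change with RCM1-NPFA was −3.08, and 3 had an unadjusted edgeR p under 0.05 (all genes 9.78% in either direction). The erythroid genes were at 9.78 to 230 CPM in vehicle and 5.63 to 15.02 CPM in VCR+RCM1-NPFA tumors. The 3 tested had a median of −3.50 with VCR+RCM1-NPFA, and all had an unadjusted edgeR p under 0.05 (all genes 7.31% in either direction). Of 5 keratinocyte genes 1 could be tested. These 3 lists overlapped with vehicle in each treated group in their summed level, and 0 of their genes passed after adjustment. The part of these cell types in the values of the ribosomal protein genes was not tested.

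**Figure D5:**
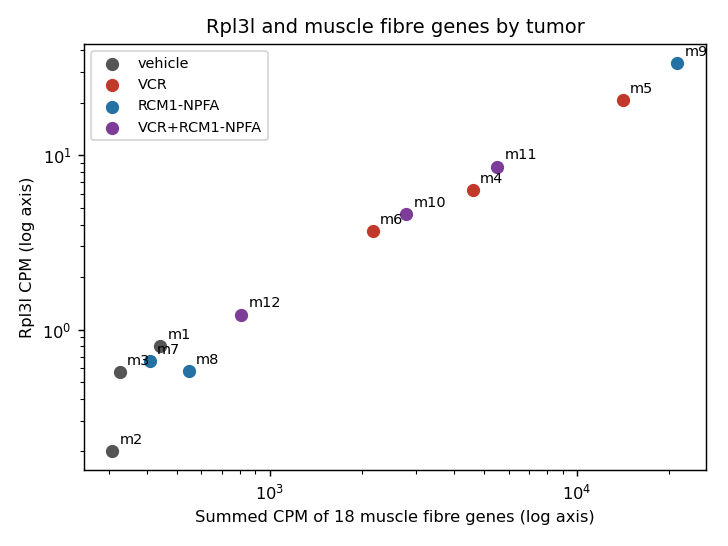
Rpl3l CPM against the summed CPM of 18 muscle fibre genes in each of the 12 tumors (both axes logarithmic), coloured by group. The tumors from m12 to m9 rise together on both axes, and the vehicle tumors m1, m2 and m3 lie at the lower left with m7 and m8.

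Among the other paralogs, Rpl36al, a near copy of Rpl36a, was at 166, 185 and 165 CPM in vehicle and 188, 215 and 176 in VCR tumors, which overlapped (log2 fold change 0.17 with VCR, edgeR adjusted p = 0.256). Rpl36a itself was at 445, 488 and 534 CPM in vehicle and 513, 558 and 452 in VCR tumors. The broadly expressed Rpl10 and Rpl39 were at 1609 to 2230 CPM and 576 to 737 CPM over the 12 tumors, and each treated group overlapped with vehicle. Rpl10l, Rpl39l and Rpl32l were not tested for lack of counts. Rpl10l, a testis paralog of Rpl10, had 0 to 3 counts in 11 tumors and 112 counts in the RCM1-NPFA tumor m8. Rpl39l, another testis paralog, had 1 to 9 counts in 11 tumors and 25 in the same m8. Rpl32l had 2 to 9 counts throughout.

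The small-subunit genes with the highest log2 fold changes in VCR tumors, apart from Rps27l, were Rps29 and Rps21, which encode short proteins of that subunit. Rps29 was at 433, 403 and 495 CPM in vehicle and 562, 618 and 450 in VCR tumors, with m6 inside the vehicle range, and its log2 fold change was 0.29 (SE 0.13, edgeR adjusted p = 0.21). In the VCR+RCM1-NPFA tumors it was 404, 418 and 491 CPM, with a log2 fold change against VCR of −0.31 (SE 0.13, edgeR adjusted p = 0.855). Rps21 was at 320, 281 and 377 CPM in vehicle, 388, 411 and 341 in VCR and 270, 299 and 351 in VCR+RCM1-NPFA tumors. Its log2 fold change was 0.22 (SE 0.13, edgeR adjusted p = 0.34) with VCR and −0.31 (SE 0.13, adjusted p = 0.855) between the combination and VCR. Both transcripts are under 600 bases, and with the length offset the change with VCR was 0.05 for Rps29 and −0.01 for Rps21. Rps6 was among the lowest with VCR at −0.15 (SE 0.11, edgeR adjusted p = 0.462), or −0.09 with the counts of its named pseudogenes added. Rps19, mutated in Diamond-Blackfan anemia, was at 947, 994 and 1211 CPM in vehicle, 1104, 1138 and 1005 in VCR, 1075, 1155 and 920 in RCM1-NPFA and 930, 938 and 1075 in VCR+RCM1-NPFA tumors, with all groups overlapping. Rpsa, which is also a laminin receptor, and Rps27a, made as a fusion with ubiquitin, likewise overlapped between all groups.

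The stalk of the large subunit, built from Rplp0, Rplp1 and Rplp2, recruits the elongation factors. Rplp2 was at 593, 614 and 753 CPM in vehicle, 739, 854 and 687 in VCR, 684, 736 and 657 in RCM1-NPFA and 610, 647 and 701 in VCR+RCM1-NPFA tumors, where all groups overlapped with vehicle. Its log2 fold change was 0.22 (SE 0.11, edgeR adjusted p = 0.263) with VCR and 0.08 (SE 0.11, adjusted p = 0.855) with RCM1-NPFA, and both turned with the length offset, to −0.02 and −0.01. Rplp1 was at 1295, 1302 and 1508 CPM in VCR+RCM1-NPFA and 1667, 1827 and 1429 in VCR tumors, which overlapped (log2 fold change −0.26, SE 0.12, edgeR adjusted p = 0.855). Rplp0, the base of the stalk and a common reference gene, was at 3187, 3143 and 3953 CPM in vehicle and at 3089 to 3540 in the 9 treated tumors, and it overlapped between all groups.

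Other large-subunit genes had the lowest changes with the combination. Rpl34 was at 562, 608 and 761 CPM in vehicle and 530, 532 and 600 in VCR+RCM1-NPFA tumors (log2 fold change −0.22, SE 0.13, edgeR adjusted p = 0.728), and the tumors overlapped. Rpl10a (−0.19), Rpl28 (−0.19) and the small-subunit Rps7 (−0.18) followed, with adjusted p from 0.714 to 0.759. Apart from Rpl3l and Rps27l, the highest with the combination were Rpl36al at 0.07 and Rpl21 at 0.04. With RCM1-NPFA, Rpl4 (−0.14), Rps7 (−0.12), Rpl3 and Rpl34 (both −0.11) were lowest and, apart from Rpl3l and Rps27l, Rpl38 (0.10) and Rplp2 were highest, none past the test. With VCR, Rpl23a (−0.11) and Rpl23 (−0.09) followed Rpl3 and Rps6. Rpl23 turned to 0.02 without m3. Rpl5 and Rpl11, which bind the p53 regulator MDM2 together with 5S RNA, were at 1608 to 1830 CPM and 701 to 939 CPM over the 12 tumors, and each treated group overlapped with vehicle. The SD between tumors of a group was lowest in Rpl6 (0.06) and Rpl5 (0.07).

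The rest of the ribosomal pathway was read from lists of its other genes. Of 6 tested ribosomal components outside the symbol rule, such as Rack1 and Fau, 0 passed in any comparison, and their median was 0.02 with VCR and −0.14 with VCR+RCM1-NPFA. Of 20 translation factors and relatives that are known to carry pyrimidine tracts, 0 rose and 1 fell with VCR, Eif4b, an initiation factor that assists the helicase eIF4A (log2 fold change −0.31, SE 0.08, edgeR adjusted p = 0.087), and the median was −0.06. Of 30 ribosome assembly genes 1 rose with VCR, Bop1 of the large-subunit processing complex (0.25, SE 0.07, edgeR adjusted p = 0.085), and 0 fell. Of 13 genes that control these mRNAs 0 rose and 2 fell with VCR, Tsc1 (−0.45, SE 0.11, edgeR adjusted p = 0.0759) and Rptor (−0.23, SE 0.06, adjusted p = 0.0948), an inhibitor and a subunit of mTOR complex 1. These counts stand beside 2.8% of all genes higher and 2.75% lower with VCR, and 0 genes of these lists passed in the other comparisons. Without m2, m4 or m5, 0 of all genes passed with VCR in edgeR, so that the calls of every list given here, the muscle fibre and mitochondrial ones included, were lost too.

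Nuclear genes for the mitochondrial ribosome, some of them short too, were read beside the cytosolic set. Of 78 tested with VCR, 8 rose and 0 fell, and 70 lay above 0, with a median log2 fold change of 0.23, compared with 49 of 79 above 0 and 0.04 for the cytosolic members. Of all genes tested, 2.8% were called higher, 2.75% lower and 50.3% lay above 0, and the genes outside the cytosolic rule had medians of 0.19 under 600 bases and 0.18 from 600 to 1000. The genes with the largest changes were Mrps26 (0.43, SE 0.11, edgeR adjusted p = 0.085) and Mrps34 (0.39, SE 0.12, adjusted p = 0.112), the first of which passed. With RCM1-NPFA and with VCR+RCM1-NPFA their medians were 0.07 and 0.07, with 0 called. The difference between the lists was not tested.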

How the data were processed

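RNA was extracted from 12 tumors, 3 per group, and sequenced from poly-A libraries, described as non-stranded although the named kit is stranded, so reads from a gene and an antisense partner cannot be told apart. The authors quantified reads with kallisto against GRCm38 (version not given in the sources used here) and deposited, for each transcript and tumor, an estimated count and a TPM value. Here, 120299 transcripts were matched to genes through a RefSeq table (GRCm38.p6), and both measures were summed per gene. The summed estimated counts were rounded, filtered by filterByExpr (minimum count 10), TMM-normalized and tested with edgeR 4.0.16 (R 4.3.3) in 1 quasi-likelihood fit of 4 groups. P-values were adjusted by Benjamini-Hochberg over 17602 genes, with a threshold of 0.1, as in the study's methods. A two-sided exact permutation test was run for single genes on log2(CPM + 0.1). Totals of 29342195 to 32108055 counts per tumor set the precision. Counts of tumors within a group differed by 14.5 to 85.8 times sampling noise (chi-square per degree of freedom), so no library was a copy of another. Alternatives included DESeq2 1.42.0, limma 3.58.1, other filters, length offsets and leaving out each tumor. The length-trend offsets were taken per tumor from a smooth trend of counts on transcript length. The scripts were tested on simulated data. The members and lists were chosen with earlier results of these data known. Named genes were fixed by role (paralog pairs, stalk, 5S particle, Rps6, Rps19, Rps27a, Rpsa, Rpl4 and Rpl41) and, in each comparison with vehicle, as the 4 highest and 4 lowest fold changes and the members past the threshold. Genes named for level, spread, gene model or unadjusted p, and non-members, were chosen after their values were seen.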

Additional observations from a re-analysis of the deposited data

Results flagged for a closer look

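A pair of genes with similar symbols but outside the rule had all 9 treated tumors above all 3 vehicle tumors. Rps19bp1, which encodes a protein that binds Rps19, was at 27, 30.4 and 30.4 CPM in vehicle and 30.6 to 41.8 CPM in treated tumors, so the nearest tumors differed by little. Its log2 fold change was 0.40 (SE 0.09, edgeR adjusted p = 0.0694) with VCR, 0.10 (edgeR adjusted p = 0.757) with RCM1-NPFA and 0.19 (edgeR adjusted p = 0.682) with VCR+RCM1-NPFA. Rps4l matches the symbol pattern but has no curated mRNA in RefSeq and is annotated as a transcribed pseudogene. How its reads were divided from those of related genes was not tested. Rps4l was at 1.54, 2.05 and 2.05 CPM in vehicle and 2.32 to 5.03 CPM in treated tumors. Its log2 fold change was 1.13 (SE 0.23, edgeR adjusted p = 0.0694) with VCR, 0.74 (edgeR adjusted p = 0.419) with RCM1-NPFA and 0.78 (edgeR adjusted p = 0.666) with VCR+RCM1-NPFA. Of all 17602 genes tested, 421 (2.39%) had every treated tumor above every vehicle tumor. The transcripts of Rps19bp1 and Rps4l have 830 and 941 bases. Genes outside the rule from 600 to 1000 bases had a median log2 fold change of 0.18 with VCR. Rps19bp1 and Rps4l were looked at after their values were seen.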

How the results depend on the processing

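No paired analysis was possible because the labels give each tumor its own number and no number is shared between groups. With VCR, 0 ribosomal protein genes passed without a filter on counts, with the length-trend offsets, with NM_ transcripts alone, by limma-trend on log2(TPM + 1) and at an adjusted p under 0.05, 2 passed by DESeq2, and 0 to 2 passed when 1 tumor was left out. Of all genes, 977 passed with VCR in the report, 599 with no filter, 465 when just the 2 groups entered the fit (352 higher and 113 lower), 42 with the length-trend offsets, 40 with NM_ transcripts alone, 2285 by DESeq2, 11 by limma-trend, 9 at 0.05 and 0 to 2012 without 1 tumor, lowest without m2, m4 or m5 and highest without m6. With RCM1-NPFA, DESeq2 passed 1 member and 277 genes, and 0 to 8 genes passed without 1 tumor. With VCR+RCM1-NPFA, DESeq2 passed 61 genes and 0 to 44 passed without 1 tumor. Against VCR, the combination gave 11 genes by DESeq2 and 1 by limma-trend. The length-trend offsets moved the member median from 0.040 to −0.187 with VCR and from −0.126 to −0.005 between the combination and VCR. They turned the sign of Rps21 (−0.012), Rplp2 (−0.022) and Rpl36al (−0.073) with VCR, of Rplp2 (−0.014) with RCM1-NPFA, and of Rpl36al (−0.038) and Rpl21 (−0.065) with the combination. Without 1 tumor, Rpl23 with VCR ranged from −0.155 to 0.018, Rpl3 with RCM1-NPFA from −0.166 to 0.005, Rpl34 with RCM1-NPFA from −0.195 to 0.033 and Rpl21 with the combination from −0.004 to 0.084. Apart from the offsets themselves and the smaller samples, the cause was not tested. With 3 tumors per group and a standard error near 0.11, changes of the size of these medians were not detectable for single genes.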

Other observations

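Among paralogs with too few counts to test, the RCM1-NPFA tumor m8 stood apart, with 112 counts of Rpl10l and 25 of Rpl39l. Rps24, which encodes a small-subunit protein and is known for alternative 3′ exons, was divided by the quantification mainly between transcripts of 750 and 1674 bases. The 750-base transcript took 44.8% of its counts in vehicle, 48.7% in VCR, 49.0% in RCM1-NPFA and 47.9% in VCR+RCM1-NPFA tumors, with single tumors from 42.6% to 50.9%. The 1674-base transcript took 49.7%, 44.9%, 44.7% and 46.4%. For the 750-base transcript, VCR and VCR+RCM1-NPFA tumors overlapped with vehicle, and the lowest RCM1-NPFA tumor (47.6%) lay just above the highest vehicle tumor (47.3%). For the 1674-base transcript, VCR+RCM1-NPFA tumors overlapped with vehicle. The highest VCR (46.8%) and RCM1-NPFA (46.4%) tumors lay just below the lowest vehicle tumor (47.5%). These shares were not tested, and how many other transcripts separate so was not counted. The pseudogene Rpl14-ps1 was at 19.7, 26.1 and 25.2 CPM in vehicle and 14.6, 14.7 and 15.04 CPM in VCR tumors, and it fell with VCR (log2 fold change −0.68, SE 0.14, edgeR adjusted p = 0.0694), but its reads can be shared with Rpl14. These values were looked at after they were seen.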
